A study of Homo sapiens with 15 samples.

Results

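Ligands, receptors and a regulator of the TGF-β family were followed in 3 human colon carcinoma cell lines: *TGFB1*, *TGFB2*, *TGFB3*, *INHBA*, *BMP2* and *BMP4* (ligands), *TGFBR1*, *TGFBR2* and *TGFBR3* (receptors) and *SMAD7* (inhibitor), 10 of 22392 genes measured. Members were chosen by name, with earlier results of these data known, and each has exactly 1 probe set that names it alone. HT29-MTX-E12 is a mucus-producing clone of the HT29 line, Caco-2 forms an enterocyte-like monolayer, and LS174T is a mucus-producing line. HT29-MTX-E12 and Caco-2 cells grew on Transwell membranes for 15 days, either under static conditions (275 µL of medium apically and 1000 µL basolaterally) or, from the day after seeding, at a semi-wet interface with mechanical stimulation (SWMS: 75 µL apically, 850 µL basolaterally, with shaking at 65 rpm). LS174T cells grew for 15 days under static conditions in plates without a membrane, so that for them cell line and culture vessel cannot be told apart. SWMS joins a smaller volume and shaking, whose parts cannot be told apart. Each of the 5 groups holds 3 replicates, 1 from each of 3 experiment batches, and 15 arrays in all.

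Ligands of this family are secreted dimers that bring type I and type II receptor kinases together. TGF-β and activin receptors then phosphorylate SMAD2 and SMAD3, and BMP receptors phosphorylate SMAD1, SMAD5 and SMAD9, after which the complex with SMAD4 enters the nucleus. In the colon, BMP signals are strongest towards the mature cells at the top of the crypt, and TGF-β restrains the growth of the epithelium. Mutations of *SMAD4* and *TGFBR2* are frequent in colon cancer, and an expression array does not read them.

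Values are log2 intensities after robust multi-array averaging (RMA), so that a difference of 1 is a doubling. A gene is said to have risen or fallen only where limma gave an adjusted p under 0.05, corrected over all 53617 probe sets, and ± is the SD (n = 3) of a level or the SE of a difference. Probe sets differ in their affinity, so levels are compared between groups for a gene. Between genes they are set side by side only with markers of absent cell types, as a rough guide to the lower end. Endothelial markers, which these lines should lack, had group means between 1.96 and 3.13, and values under 4 are called very low here.

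Of 8 colon epithelium markers, all had group means of at least 4 except *CDX1* in SWMS Caco-2 cells (3.85) and *KRT20* in LS174T cells (3.79). None of 5 endothelial markers reached 4, and of the fibroblast and leukocyte markers those that did in any group were *COL1A1*, *LUM*, *PDGFRB*, *CD14* and *CD68*, the last encoding a lysosomal protein, at 9.49 to 10.44. The SWMS Caco-2 array of batch 1 was the least like its group: it correlated with the group mean at 0.987, and the other 14 arrays at 0.993 or more.

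Isoforms of TGF-β are introduced with their promoters, which differ in what lies before the start sites. A link between these sequences and the response to SWMS was not tested. Each sequence is 300 bases of RefSeq (GRCh38.p14), from 250 bases before the start to 50 after it, 5′ to 3′ on the gene's own strand. Capitals mark matches on either strand, none of which overlap here. The letters searched were GGGCGG, known as the GC box. The core of a cAMP response element was searched as TGACG. The E-box was searched as CACGTG, and the TATA box as TATAAA.
TGFB1, chr19:41353873-41354172, minus strand: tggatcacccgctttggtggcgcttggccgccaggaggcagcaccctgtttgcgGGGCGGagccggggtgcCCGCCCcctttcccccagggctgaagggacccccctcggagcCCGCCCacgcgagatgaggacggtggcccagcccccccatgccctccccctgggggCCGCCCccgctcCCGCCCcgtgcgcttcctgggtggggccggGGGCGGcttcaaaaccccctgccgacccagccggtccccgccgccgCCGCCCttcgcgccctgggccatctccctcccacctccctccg
TGFB2, chr1:218345086-218345385, plus strand: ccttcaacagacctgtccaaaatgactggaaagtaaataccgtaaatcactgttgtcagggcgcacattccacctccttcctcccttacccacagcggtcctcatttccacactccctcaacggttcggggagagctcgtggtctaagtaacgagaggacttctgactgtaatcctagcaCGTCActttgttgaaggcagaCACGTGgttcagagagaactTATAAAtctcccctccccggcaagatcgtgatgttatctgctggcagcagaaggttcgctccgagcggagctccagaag
TGFB3, chr14:75981946-75982245, minus strand: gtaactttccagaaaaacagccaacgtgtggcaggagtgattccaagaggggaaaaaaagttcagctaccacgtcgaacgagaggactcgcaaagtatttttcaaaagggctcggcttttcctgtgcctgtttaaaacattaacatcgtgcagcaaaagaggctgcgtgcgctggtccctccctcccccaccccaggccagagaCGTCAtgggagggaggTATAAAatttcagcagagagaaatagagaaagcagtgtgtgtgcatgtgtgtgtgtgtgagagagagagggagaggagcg

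The *TGFB1* window is 77.3% G and C and holds 7 GC boxes, 1 of them after the start, and no TATA box. The *TGFB2* window is 51.7% G and C, with the cAMP response core 70, the E-box 49 and the TATA box 29 bases before the start. The shown window of *TGFB3*, the second of 2, is 50.3% G and C, with the cAMP response core 46 and the TATA box 30 bases before the start. The first *TGFB3* window has an E-box and none of the other motifs. Of all 35116 windows, 45.0% hold a GC box, 24.6% the cAMP response core, 7.3% the E-box and 11.5% the TATA box, and the median content of G and C is 58.7%. Windows were found for 9 of the 10 genes, the exception being *BMP2*, and such a match is not a bound site.

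Under SWMS, the TGF-β isoform that passed the test as lower was a different one in each line. *TGFB2* was already under 4 on all static Caco-2 arrays, so that a fall there could hardly be measured. In HT29-MTX-E12 cells *TGFB2* fell 3.48-fold while *TGFB1* did not pass the test, and in Caco-2 cells *TGFB1* fell 2.27-fold while *TGFB2* did not pass. *BMP2* fell in both lines and *BMP4* in Caco-2 cells, by 2.92-fold. Of the receptors, *TGFBR2* rose and *TGFBR3* fell in Caco-2 cells, and *SMAD7* fell there too. In all, none of the 10 genes rose and 2 fell in HT29-MTX-E12 cells, where 3.66% of all genes rose and 1.87% fell. In Caco-2 cells 1 rose and 5 fell, where 3.02% of all genes rose and 6.72% fell. The median difference of the 10 genes was 0.01 in HT29-MTX-E12 and -0.47 in Caco-2 cells, against -0.02 for all genes in both lines. As the 10 genes were chosen with earlier results of these data known, these shares and medians describe them and test nothing. RNA came from whole cultures, so that fewer cells of a type and less RNA per cell cannot be told apart.

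**Figure D1:**
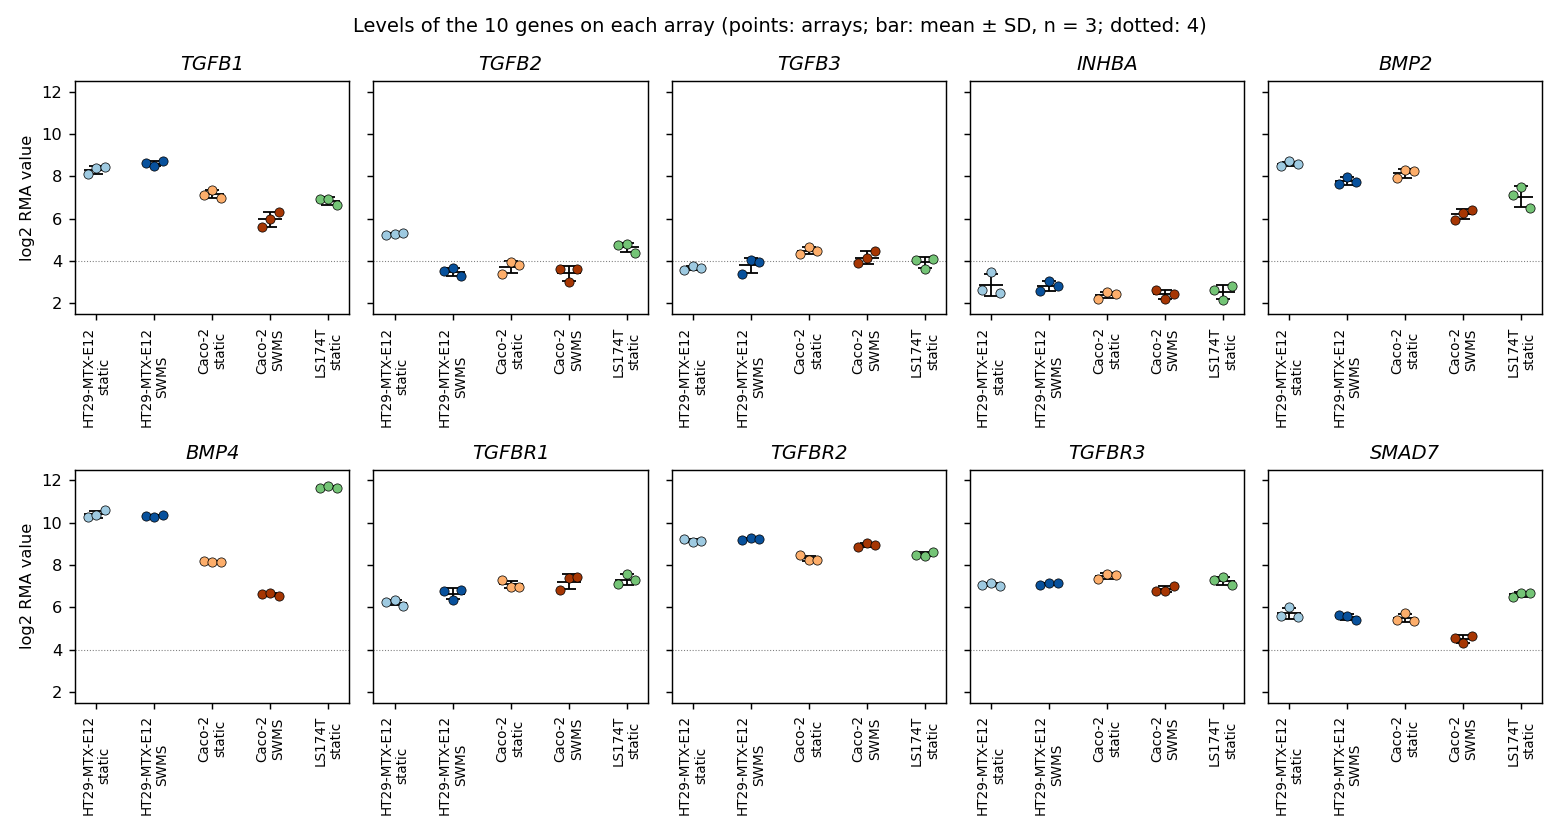
Level of each of the 10 genes on each array (y axis, log2 RMA value) in the 5 groups (x axis); points are arrays, bars the mean ± SD of 3 arrays, and the dotted line the level of 4. *TGFB2* drops in HT29-MTX-E12 cells from 5.29 to 3.49, *BMP4* in Caco-2 cells from 8.16 to 6.61, and *INHBA* stays under 4 on all arrays; heights of different genes are not comparable.

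*TGFB1* (chr19:41330323-41353922) encodes the isoform best known for restraining epithelial growth and for acting on immune cells. Its level in HT29-MTX-E12 cells was 8.09, 8.40 and 8.42 on the static arrays of batches 1, 2 and 3 and 8.61, 8.48 and 8.72 on the SWMS arrays. These groups did not overlap, but the difference of 0.30 ± 0.17 had an adjusted p of 0.517. In Caco-2 cells it was 7.11, 7.35 and 6.97 on static arrays and 5.58, 5.97 and 6.33 on SWMS arrays. All SWMS arrays of Caco-2 cells thus lay below all static ones, by 1.52, 1.38 and 0.64 within the batches. The mean difference was -1.18 ± 0.17 (95% interval -1.55 to -0.81, adjusted p = 0.000633). The responses of both lines differed by -1.48 ± 0.25 (adjusted p = 0.00377), Caco-2 minus HT29-MTX-E12. Without the SWMS Caco-2 array of batch 1 or any other single array, this difference remained between -1.66 and -1.29 and past the threshold.

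*TGFB2* (chr1:218345336-218444619) encodes an isoform that needs the co-receptor betaglycan to bind well to its type II receptor. In HT29-MTX-E12 cells its level was 5.24, 5.28 and 5.34 on the static arrays and 3.52, 3.66 and 3.28 on the SWMS arrays. All SWMS arrays thus lay under 4. They were above the highest group mean of the endothelial markers (3.13) but not far from it, so that the fall may be understated. The difference was -1.80 ± 0.21 (95% interval -2.24 to -1.36, adjusted p = 0.000107), the largest among the 10 genes in this line. Static Caco-2 arrays, at 3.39, 3.94 and 3.80, were already that low. On SWMS arrays of Caco-2 cells the level was 3.64, 3.02 and 3.60, a difference of -0.29 ± 0.21 (adjusted p = 0.550) with overlapping groups and 1 batch of the opposite sign. The responses differed by 1.51 ± 0.29 (adjusted p = 0.0107), higher in Caco-2 cells, but a fall like that of HT29-MTX-E12 cells could hardly have been measured from so low a static level.

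*TGFB3* (chr14:75958097-75983011) encodes the third isoform. It was near the lower end throughout, with 7 of 15 arrays under 4. Its group means were 3.66 ± 0.10 and 3.79 ± 0.37 in static and SWMS HT29-MTX-E12 cells, and 4.48 ± 0.17 and 4.16 ± 0.29 in static and SWMS Caco-2 cells. Static and SWMS arrays overlapped in both lines. The differences were 0.13 ± 0.21 (95% interval -0.32 to 0.58) and -0.32 ± 0.21 (95% interval -0.77 to 0.14).

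Isoforms were next set against each other by their change within arrays, which needs no comparison of levels between probe sets. *TGFB2* minus *TGFB1* changed by -2.10 in HT29-MTX-E12 cells (-2.24, -1.70 and -2.36 in the batches). In Caco-2 cells it changed by 0.89 (1.78, 0.47 and 0.44). *TGFB2* was under 4 on all 6 Caco-2 arrays, so that this change follows the fall of *TGFB1* and says little of *TGFB2*. The array of batch 1 that stood apart gives the largest of these, and without it the change in Caco-2 cells was 0.60. *TGFB3* minus *TGFB1* changed by 0.87 in Caco-2 cells, with all 3 batches above 0, and by -0.17 in HT29-MTX-E12 cells (exact permutation p = 0.6), with batches of both signs. In Caco-2 cells *TGFB3* was near 4 and its own difference of -0.32 did not pass. The change of 0.87 thus mainly follows the fall of *TGFB1* as well. For both changes of *TGFB2* minus *TGFB1* and that of *TGFB3* minus *TGFB1* in Caco-2 cells, the two-sided exact permutation test over arrays gave p = 0.1. This is the smallest it allows with 3 arrays against 3, and it became 0.15 after adjustment over 6 such tests. That test does not pair the arrays. Paired by batch, the exact permutation p was 0.25 for each of these changes, which is the smallest that 3 pairs allow.

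**Figure D2:**
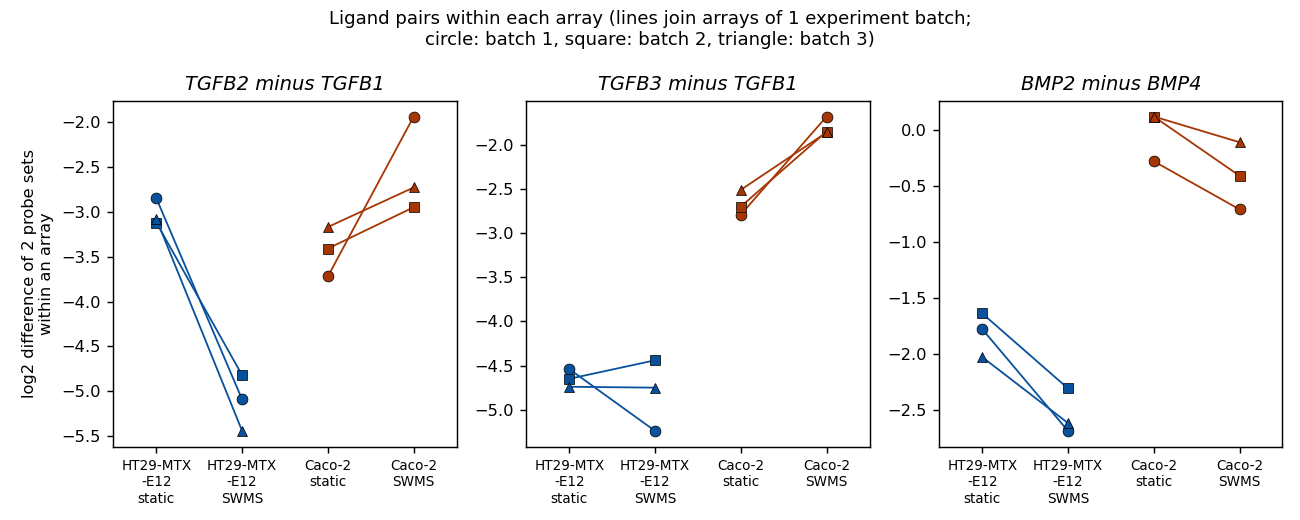
Difference of 2 ligands' log2 values within each array (y axis) under static and SWMS conditions in both lines (x axis); lines join the arrays of an experiment batch, and symbols mark the batch. *TGFB2* minus *TGFB1* went down by 2.10 on average in HT29-MTX-E12 cells and up by 0.89 in Caco-2 cells, where *TGFB2* was under 4 on all arrays; only the slopes are to be read, since the heights depend on the probe sets.

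*INHBA* (chr7:41685114-41705406) encodes the subunit of activin A. It was under 4 on all 15 arrays, with group means between 2.39 and 2.86, within the range of the endothelial markers. Its differences under SWMS, -0.04 ± 0.24 in HT29-MTX-E12 and 0.03 ± 0.24 in Caco-2 cells, therefore say nothing of a change in this gene.

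*BMP2* (chr20:6767686-6780246) encodes a ligand made by mature cells of the colon epithelium. In HT29-MTX-E12 cells it was 8.49, 8.70 and 8.56 on static arrays and 7.64, 7.98 and 7.74 on SWMS arrays. The groups did not overlap, and the differences of -0.85, -0.72 and -0.82 in the batches were alike. The mean of -0.80 ± 0.20 passed the threshold narrowly (adjusted p = 0.0468) and lost the call without any 1 of the 6 arrays of this line (adjusted p between 0.0678 and 0.176). In Caco-2 cells *BMP2* was 7.90, 8.28 and 8.25 on static arrays and 5.94, 6.25 and 6.41 on SWMS arrays. This difference of -1.95 ± 0.20 (95% interval -2.38 to -1.51, adjusted p = 3.62e-05), a 3.85-fold fall, was the largest among the 10 genes in Caco-2 cells, with -1.96, -2.03 and -1.84 in the batches. The responses differed by -1.15 ± 0.29, with an adjusted p of 0.0501, which just missed the threshold. It was 0.0358 with the experiment batch as a block and between 0.0118 and 0.0753 over the other alternatives that kept all arrays, past the threshold in 5 of 7. It missed the threshold in 10 of 12 fits that left out 1 array (up to 0.125).

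*BMP4* (chr14:53949736-53956891) encodes a ligand that, in the gut wall, comes mainly from the tissue under the epithelium. In HT29-MTX-E12 cells it was 10.27, 10.34 and 10.59 on static and 10.33, 10.29 and 10.36 on SWMS arrays. These groups overlapped, and the difference was -0.07 ± 0.08 (95% interval -0.24 to 0.10, adjusted p = 0.791). In Caco-2 cells the static arrays read 8.18, 8.16 and 8.13 and the SWMS arrays 6.65, 6.66 and 6.52. The SDs within these groups were 0.02 and 0.08, and the difference of -1.55 ± 0.08 (adjusted p = 5.63e-08) had the smallest p of the 10 genes. The responses differed by -1.47 ± 0.11 (adjusted p = 1.07e-05). *BMP2* minus *BMP4* changed by -0.73 in HT29-MTX-E12 cells (exact permutation p = 0.1, the smallest possible) and by -0.40 in Caco-2 cells (exact permutation p = 0.2). Paired by batch, the exact permutation p was 0.25 in both lines, again the smallest possible.

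None of *TGFBR1*, *TGFBR2* and *TGFBR3* differed by more than 0.63 between SWMS and static conditions in either line. *TGFBR1* (chr9:99103647-99154192), the type I receptor kinase, had group means of 6.22 ± 0.13 and 6.64 ± 0.26 in static and SWMS HT29-MTX-E12 cells. This difference of 0.42 ± 0.19 had an adjusted p of 0.346 in limma. In Caco-2 cells the means were 7.08 ± 0.18 and 7.21 ± 0.36, with overlapping groups and batches of both signs.

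*TGFBR2* (chr3:30606356-30694142), the type II receptor kinase that binds the ligand first, was 9.22, 9.09 and 9.15 on static and 9.16, 9.26 and 9.22 on SWMS arrays of HT29-MTX-E12 cells. In Caco-2 cells it was 8.45, 8.25 and 8.24 on static and 8.86, 9.04 and 8.94 on SWMS arrays. The HT29-MTX-E12 groups overlapped, and the Caco-2 groups did not. *TGFBR2* rose 1.55-fold in Caco-2 cells (0.63 ± 0.08, adjusted p = 0.000293), the only one of the 10 genes to rise in either line. In HT29-MTX-E12 cells the difference was 0.06 ± 0.08 (95% interval -0.12 to 0.24). The responses differed by 0.57 ± 0.12 (adjusted p = 0.0181), a call lost without static Caco-2 replicate 2 or 3 or HT29-MTX-E12 replicate 1 of either condition (adjusted p between 0.0516 and 0.0571).

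*TGFBR3* (chr1:91680343-91906002) encodes betaglycan, the co-receptor that presents TGF-β to its receptors. In HT29-MTX-E12 cells the group means were 7.06 ± 0.07 and 7.12 ± 0.05. In Caco-2 cells it was 7.34, 7.57 and 7.52 on static arrays and 6.76, 6.76 and 7.02 on SWMS arrays. These did not overlap, and *TGFBR3* fell by 0.63 ± 0.12 on the log2 scale (adjusted p = 0.00422), or with an adjusted p of 0.0645 in a fit of the Caco-2 arrays alone. The responses differed by -0.69 ± 0.17 (adjusted p = 0.0402). That call was lost with the experiment batch as a block (adjusted p = 0.056) and in 10 of 12 fits that left out 1 array (up to 0.103).

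*SMAD7* (chr18:48919853-48950965) encodes the inhibitory SMAD that blocks type I receptors, and is itself a target of both branches. In HT29-MTX-E12 cells it was 5.58, 6.01 and 5.52 on static and 5.64, 5.58 and 5.41 on SWMS arrays, which overlapped. Static Caco-2 arrays read 5.39, 5.72 and 5.36 and SWMS arrays 4.55, 4.31 and 4.66. The fall of 0.98 ± 0.16 on the log2 scale in Caco-2 cells (adjusted p = 0.00175) was 1.97-fold and seen in all 3 batches. The responses of the lines differed by -0.82 ± 0.23, which did not pass (adjusted p = 0.0824).

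**Figure D3:**
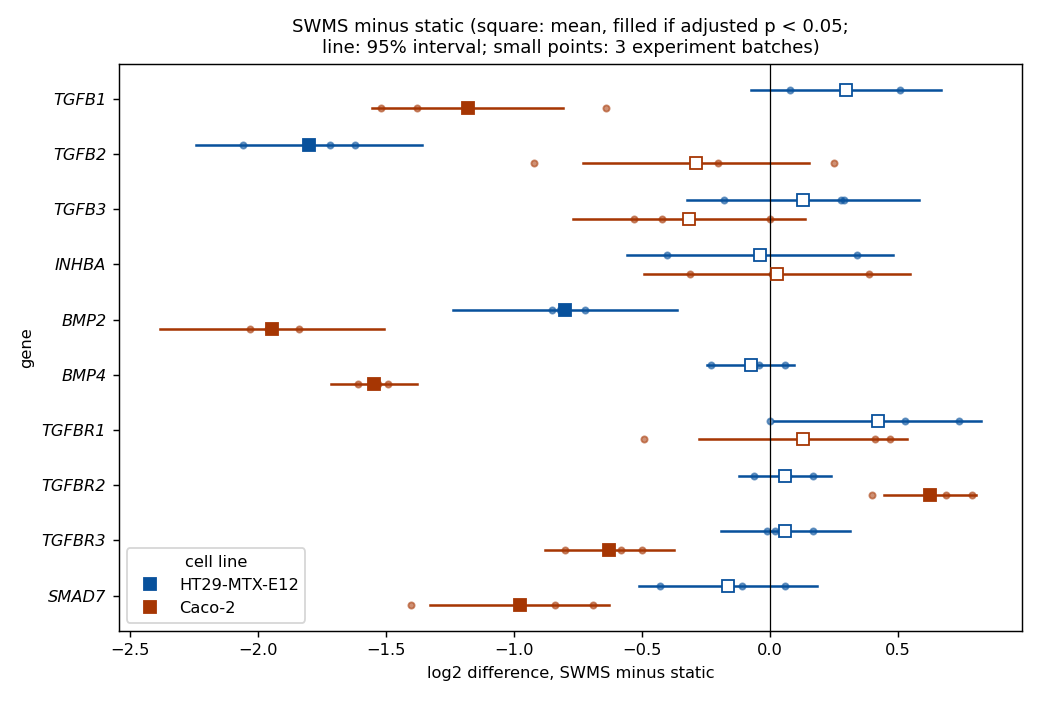
SWMS minus static (x axis, log2 difference) for each gene (y axis) in HT29-MTX-E12 (blue) and Caco-2 cells (brown); squares are means, filled at an adjusted p under 0.05, lines the 95% interval of the fit and small points the 3 experiment batches. *TGFB2* at -1.80 and *BMP2* at -0.80 are the filled squares of HT29-MTX-E12 cells, and in Caco-2 cells 5 filled squares lie below 0 and *TGFBR2* at 0.63 above it.

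The response itself differed between the lines for 5 of the 10 genes, *TGFB1*, *TGFB2*, *TGFBR2*, *TGFBR3* and *BMP4*, where 4.49% of all genes passed this test. *TGFB2* was very low on all Caco-2 arrays, and whether its difference of responses comes from that was not tested. Each of the 6 calls in Caco-2 cells, and the call of *TGFB2* in HT29-MTX-E12 cells, held with any single array left out. Other markers moved in Caco-2 cells too: of 8 colon epithelium markers 3 fell, *KRT20* by 2.49, *EPCAM* by 0.35 and *VIL1* by 0.36 on the log2 scale, and their summed level was 13.25 to 13.32 on static and 12.89 to 13.02 on SWMS arrays. Of 7 leukocyte markers *CD68* fell by 0.95 and *CD14* by 1.08, *MS4A1* rose by 0.47 while under 4, *PTPRC* stayed between 1.63 and 1.97 in all groups, and the summed level was 10.39 to 10.69 on static and 9.49 to 9.77 on SWMS arrays. That sum was mostly *CD68*, with Caco-2 group means of 10.44 static and 9.49 under SWMS. Of 6 fibroblast markers *LUM* fell by 0.65, and no endothelial marker passed. Of all genes, 6.72% fell and 3.02% rose in Caco-2 cells. In HT29-MTX-E12 cells no marker of these 4 lists passed. The part of these markers in the results was not tested.

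Under static conditions, most of the 10 genes differed between HT29-MTX-E12 cells and each other line, but fewer between LS174T and Caco-2 cells. Many other genes differed too. Between Caco-2 and HT29-MTX-E12 cells 7 of 10 passed, where 36.5% of all genes did. Between LS174T and HT29-MTX-E12 cells 7 passed, where 32.0% of all genes did, and between LS174T and Caco-2 cells 4, where 35.4% did. These comparisons share their static arrays.

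*TGFB1* was highest in static HT29-MTX-E12 cells (8.31 ± 0.18), followed by Caco-2 (7.14 ± 0.19) and LS174T cells (6.83 ± 0.18). The step from HT29-MTX-E12 to Caco-2 cells was 2.24-fold (adjusted p = 9.47e-05), and that from Caco-2 to LS174T cells did not pass (-0.31 ± 0.17, adjusted p = 0.251). *TGFB2* was also highest in HT29-MTX-E12 cells (5.29 ± 0.05), then LS174T (4.64 ± 0.23) and Caco-2 cells (3.71 ± 0.29). Both steps passed, that to LS174T cells with an adjusted p of 0.0333, or of 0.0533 with the experiment batch as a block, and that from LS174T to Caco-2 cells with 0.00305. Leaving out single arrays other than LS174T replicate 2 ended the first of these calls (adjusted p up to 0.143). *TGFB3* ran the other way, highest in Caco-2 cells (4.48 ± 0.17), where it exceeded HT29-MTX-E12 cells by 0.81 ± 0.21 (adjusted p = 0.00891), with LS174T cells between them at 3.93 ± 0.25 and not past the threshold against either.

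*BMP4* had the widest span, at 11.67 ± 0.04 in LS174T, 10.40 ± 0.17 in HT29-MTX-E12 and 8.16 ± 0.02 in Caco-2 cells. LS174T exceeded HT29-MTX-E12 cells 2.42-fold (adjusted p = 1.89e-08) and Caco-2 cells 11.5-fold (adjusted p = 2.85e-13). *BMP2* ranked differently, with LS174T cells lowest. It was 8.58 ± 0.11 in HT29-MTX-E12 and 8.15 ± 0.21 in Caco-2 cells, a difference that did not pass (adjusted p = 0.143), and 7.04 ± 0.49 in LS174T cells, which were lower than both (adjusted p = 4.26e-05 and 0.0007).

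Among receptors, *TGFBR2* was highest in HT29-MTX-E12 cells (9.15 ± 0.06), where it exceeded LS174T (8.50 ± 0.09) and Caco-2 cells (8.31 ± 0.12). *TGFBR1* was lowest there (6.22 ± 0.13), below Caco-2 (7.08 ± 0.18) and LS174T cells (7.31 ± 0.24). HT29-MTX-E12 cells thus had the highest *TGFBR2* and the lowest *TGFBR1* of the 3 lines, and for neither gene did the difference between Caco-2 and LS174T cells pass. In Caco-2 cells *TGFBR3* (7.48 ± 0.12) exceeded HT29-MTX-E12 cells (7.06 ± 0.07) with an adjusted p of 0.0147, with LS174T cells between them at 7.24 ± 0.19. That call was lost without static Caco-2 replicate 2 or 3 or static HT29-MTX-E12 replicate 3 (adjusted p between 0.0521 and 0.0598). *SMAD7* was highest in LS174T cells (6.61 ± 0.11), above HT29-MTX-E12 (5.71 ± 0.27, adjusted p = 0.00067) and Caco-2 cells (5.49 ± 0.20, adjusted p = 7.45e-05), and the difference between the last 2 did not pass. For *INHBA* no pair of lines passed.

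Around the 10 genes, 105 further genes of the pathway were analysed. In HT29-MTX-E12 cells none of the 105 rose, against 3.66% of all genes, and 5 fell (4.8%), against 1.87%. In Caco-2 cells 1 rose, against 3.02% of all genes, and 15 fell, against 6.72% (15.2% in either direction, against 9.74%), and their median difference was -0.13, against -0.02 for all genes. The lists were written with earlier results of these data known, so these shares describe the lists and test nothing. With the 10 genes included, 2 rose and 20 fell in Caco-2 cells, or 2 and 18 without the SWMS array of batch 1. With the Caco-2 arrays fitted alone, the calls named below of *CDKN1A*, *CDKN2B*, *GDF15*, *ID1*, *ITGAV*, *LTBP1*, *SOSTDC1*, *THBS1* and *TRIM33* in this line were lost (adjusted p between 0.0561 and 0.121).

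Targets of BMP signalling that fell in Caco-2 cells were *ID1* (-2.06 ± 0.37), *BAMBI* (-1.81 ± 0.19) and *ID3* (-1.52 ± 0.20), besides *SMAD7*. These were 4 of the 14 on that list, and none was higher. The other 10 did not pass, and the median of the list was -0.13. Of all genes, 6.72% fell and 3.02% rose, with a median of -0.02. The ID proteins hold back differentiation factors, and BAMBI is a decoy receptor without a kinase. All 3 were lower in each batch. In HT29-MTX-E12 cells none of the 14 passed, and *ID1*, *BAMBI* and *ID3* differed by -0.17 ± 0.37, -0.34 ± 0.19 and -0.22 ± 0.20. The responses differed for *BAMBI* (-1.47 ± 0.26, adjusted p = 0.00663) and *ID3* (-1.30 ± 0.29, adjusted p = 0.0257). The call of *ID3* was lost without replicate 1 of either HT29-MTX-E12 group or without static Caco-2 replicate 1 or 2 (adjusted p up to 0.0731). For *ID1* the difference of responses was -1.89 ± 0.53 and did not pass (adjusted p = 0.0775). *ID3* was very low in HT29-MTX-E12 cells, at 3.40 static and 3.18 SWMS, and in SWMS Caco-2 cells, at 2.65. A fall in HT29-MTX-E12 cells could thus hardly be measured, and whether its difference of responses comes from that was not tested. In LS174T cells 9 of these 14 genes, *SMAD7* among them, were above static HT29-MTX-E12 cells and none below. Of all genes, 16.9% were higher and 15.1% lower in that comparison. Against static Caco-2 cells 7 of the 14 were higher and 1 lower in LS174T cells, where 18.5% of all genes were higher and 16.9% lower. *ID3* was at 9.23 in LS174T and 4.18 in static Caco-2 cells.

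Among targets of TGF-β, 4 of 15 measured fell in Caco-2 cells and none rose, where 6.72% of all genes fell and 3.02% rose. The other 11 did not pass, and the median of the list was -0.52, against -0.02 for all genes. The 4 that fell were *BHLHE40*, a circadian repressor (-1.68 ± 0.30), *CDKN2B* (-0.91 ± 0.18) and *CDKN1A* (-0.60 ± 0.16), which encode inhibitors of the cell cycle, and *SMAD7*. The list of BMP targets holds *SMAD7* too. The call of *CDKN1A* was lost without any 1 of the 6 Caco-2 arrays (adjusted p up to 0.109). In HT29-MTX-E12 cells the list had 1 call, *PMEPA1* (-0.87 ± 0.16, adjusted p = 0.00652), whose product takes SMAD2 and SMAD3 from the receptor. It differed by -0.52 ± 0.16 in Caco-2 cells (adjusted p = 0.0759). For none of the 15 genes did the difference of responses between the lines pass.

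Of 13 genes of latency and activation, which hold secreted TGF-β inactive or release it, 3 fell in HT29-MTX-E12 cells, where 1.87% of all genes fell, and 4 in Caco-2 cells, where 6.72% did. The other 10 and 9 did not pass, and the median of the list was -0.05 and -0.40. *THBS1* (thrombospondin, an activator of latent TGF-β) fell by 0.85 ± 0.19 and 0.79 ± 0.19 on the log2 scale, and *ITGAV* (the integrin chain that binds the latent complex) by 0.59 ± 0.08 and 0.43 ± 0.08, in this order of the lines. Both *THBS1* calls were lost without some single arrays: HT29-MTX-E12 static replicate 1 or SWMS replicate 2 or 3 (adjusted p up to 0.0915), and Caco-2 replicate 1 of either condition or static replicate 2 (up to 0.0828). *BMP1*, a protease that cuts latent complexes and procollagens, fell in HT29-MTX-E12 cells (-0.82 ± 0.16), but not past the threshold without SWMS replicate 1 or static replicate 2 (adjusted p = 0.0587 and 0.0588). *FURIN*, which cleaves the ligand precursors, and *LTBP1*, which ties latent TGF-β to the matrix, fell in Caco-2 cells (-0.93 ± 0.13 and -0.67 ± 0.14).

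Of the other ligands and receptors few passed. *GDF15*, a stress-induced distant member of the family, fell in Caco-2 cells (-0.74 ± 0.16, adjusted p = 0.0125, lost without replicate 1 of either condition at 0.0567 and 0.0531). In HT29-MTX-E12 cells it differed by 0.55 ± 0.16 (adjusted p = 0.0959), and the responses differed by -1.29 ± 0.23 (adjusted p = 0.00635). *ACVR1C*, a type I receptor of the activin branch, fell in Caco-2 cells (-1.34 ± 0.22, adjusted p = 0.0016). *ACVR2A*, a type II receptor for activins, fell in HT29-MTX-E12 cells by 0.49 ± 0.12 on the log2 scale, narrowly (adjusted p = 0.0465), and not with the batch as a block (0.0562). That call was also lost without 5 of the 6 arrays of the line (adjusted p up to 0.202).

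Of 14 secreted antagonists measured, none passed in HT29-MTX-E12 cells. In Caco-2 cells 1 rose and 2 fell, where 3.02% of all genes rose and 6.72% fell. The other 11 did not pass there, and the median of the list was 0.07. *FSTL3*, which binds activins, fell (-1.20 ± 0.15, adjusted p = 0.000152), as did *SOSTDC1*, a BMP antagonist (-1.06 ± 0.23), which was lost without static replicate 2 (adjusted p = 0.0625) and lay at 3.17 under SWMS. *CHRDL2*, of the chordin family, rose (0.98 ± 0.19, adjusted p = 0.006). *FSTL3* differed by 0.32 ± 0.15 in HT29-MTX-E12 cells, and its responses differed by -1.52 ± 0.21 (adjusted p = 0.000976). Among intracellular regulators, *TRIM33*, a ubiquitin ligase acting on SMAD4, fell in Caco-2 cells (-0.56 ± 0.10).

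**Figure D4:**
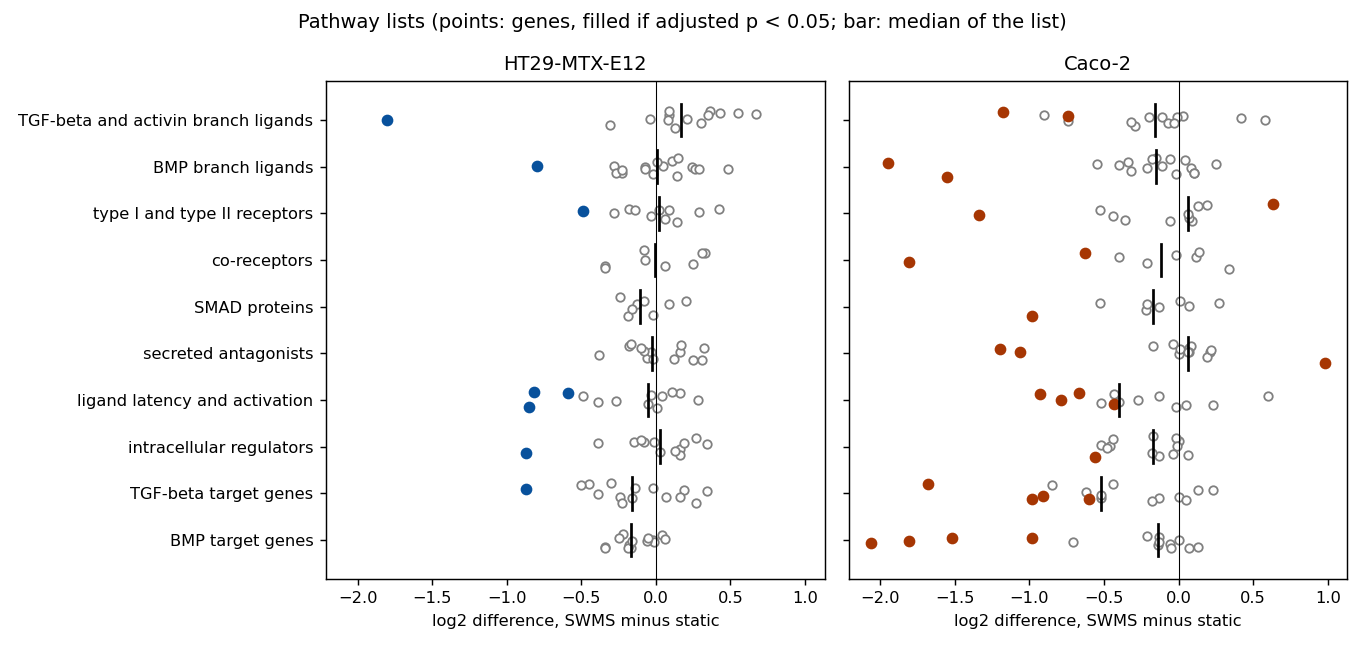
SWMS minus static (x axis, log2 difference) of the measured genes of each pathway list (y axis) in HT29-MTX-E12 (left) and Caco-2 cells (right); points are genes, filled at an adjusted p under 0.05, and bars the median of a list. Calls of HT29-MTX-E12 cells all lie below 0, and in Caco-2 cells only *TGFBR2* and *CHRDL2* are filled above 0; some genes are on more than 1 list, and the 10 members are included.

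Finally, the genes whose log2 values followed each moved gene most closely over the 15 arrays were sought among 10480 genes with a mean of at least 5. The arrays fall into 5 groups, so these correlations follow the group means and are given as a description. *TGFB2* was followed by *TFF1* (r = 0.909) and *TFF2* (r = 0.873), which encode trefoil factors secreted with mucus, and by *UQCR11* (r = 0.882). *TFF1* differed by -2.14 and *TFF2* by -3.54 in HT29-MTX-E12 cells under SWMS, and by -0.49 and -0.32 in Caco-2 cells. *BMP2* was followed most closely by *AGPAT2* (r = 0.978), *BMP4* by *CCDC50* (r = 0.987), *TGFB1* by *CENPB* (r = 0.972), *TGFBR2* by *THADA* (r = 0.959), *TGFBR3* by *ALDOC* (r = 0.907) and *SMAD7* by *OAS1* (r = 0.974).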

How the data were processed

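RNA of 5 groups, with 3 independent replicate experiments each, was hybridised to 15 arrays of the Affymetrix Human Gene ST family. The authors deposited log2 intensities after RMA, which corrects background, quantile-normalizes the arrays and summarises the probes of each probe set. Quantile normalization removes any shift common to a whole array. The deposited table has the transcript cluster identifiers of the array annotation, while the methods describe probe sets redefined by gene, so that values here need not equal those behind the paper. Of 53617 probe sets, 23866 name 1 gene, 1852 several and 27899 none. Each gene took its single-gene probe set with the highest mean, which gave 22392 genes, of which 630 had several. Array medians lay between 3.72 and 3.85, and precision is limited by how many arrays there are.

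In limma 3.58.1 (R 4.3.3), the 5 group means were fitted over all 15 arrays, leaving 10 residual degrees of freedom, and variances were moderated with a trend on intensity. All p-values are two-sided and adjusted by Benjamini and Hochberg over all probe sets. Isoform differences were tested by exact permutation (scipy 1.17.1). The fit was also tested on simulated data for SWMS in HT29-MTX-E12 cells. It recovered 10% of 50 genes changed by 0.5 on the log2 scale, 58% at 1, 96% at 1.5 and 100% at 2. There were 7 false calls among 53617 probe sets. The simulation changed only those genes, far fewer than were called in the data, so its rates need not hold there. The replicate number is the experiment batch per the labels. Deviations of same-batch static and SWMS arrays correlated at 0.04, -0.00 and 0.05 in HT29-MTX-E12 and at -0.05, -0.10 and -0.01 in Caco-2 cells. The batch was a block in an alternative, since the methods name none. Alternatives also covered array weights, no trend, IBMT, the statistic in the methods (loess span 0.3), adjustment over genes only, a common median, the groups compared fitted alone, probe sets with no group mean of 4 left out, and each array left out. The pathway count without the SWMS Caco-2 array of batch 1 was chosen after seeing the data.

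Members and lists were chosen with earlier results of these data known. Further genes were named by rule: of each list, up to 4 per line with the largest difference among those called, and the 3 genes most correlated with each member called under SWMS, of which the first, or for *TGFB2* all 3, are printed. Marker genes are the exception, named where they passed or for comparison.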

Additional observations from a re-analysis of the deposited data

Results flagged for a closer look

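The response to SWMS differed between Caco-2 and HT29-MTX-E12 cells by the test of the difference itself for 5 of the 10 genes. Caco-2 minus HT29-MTX-E12, the log2 difference of responses was -1.48 for *TGFB1*, 1.51 for *TGFB2*, 0.57 for *TGFBR2*, -0.69 for *TGFBR3* and -1.47 for *BMP4*. *TGFB2* was under 4 on all 6 Caco-2 arrays, so that a fall there could hardly be measured. The sign turned between the lines for *TGFB1*, at 0.30 in HT29-MTX-E12 and -1.18 in Caco-2 cells, and for *TGFBR3*, at 0.06 and -0.63, but the HT29-MTX-E12 value did not pass in either. Of the 105 further pathway genes, 6 differed likewise (5.7%), near the 4.49% of all genes that passed this test. They were *ACVR1C* by -1.35, *BAMBI* by -1.47, *FSTL3* by -1.52, *GDF15* by -1.29, *ID3* by -1.30 and *TRIM33* by -0.59. *ID3* had group means under 4 in HT29-MTX-E12 cells. With 1 array left out, *ACVR1C* lost this call in 6 of 12 fits (adjusted p up to 0.0878), *ID3* in 4 (up to 0.0731) and *TRIM33* in 9 (up to 0.113), and with the replicate block *ACVR1C* had an adjusted p of 0.0563.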

How the results depend on the processing

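Of 474 member results under alternatives that keep all arrays, 457 kept direction and side of the threshold, 8 lost and 7 gained a call and 2 changed sign. With 1 array left out, 380 of 420 kept both. Of the 10 genes, 2 were called in HT29-MTX-E12 cells, and 1 without the intensity trend, 1 with arrays shifted to the same median and 1 with any single array left out. The difference of responses was called for 5, for 3 without the trend (*TGFBR2* at an adjusted p of 0.0752 and *TGFBR3* at 0.0636 were lost), and for 3 to 6 with single arrays left out. Uncalled values near 0 changed sign. *INHBA* in Caco-2 cells was -0.038 with array weights, -0.0001 with a common median and -0.066 to 0.13 with single arrays left out, its value in HT29-MTX-E12 cells was then -0.23 to 0.26, and its difference of responses -0.23 to 0.26. *BMP4* in HT29-MTX-E12 cells was -0.14 to 0.0205 and *TGFB3* minus *TGFB1* there -0.35 to 0.04 with single arrays left out. The replicate block ended the calls of *TGFBR3* in the difference of responses (adjusted p = 0.056), *TGFB2* between LS174T and HT29-MTX-E12 cells (0.0533), *ACVR2A* in HT29-MTX-E12 cells (0.0562) and *ACVR1C* in the difference of responses (0.0563), brought that of *BMP2* (0.0358) and changed no other call of a member. Over all genes, 676 rose and 1504 fell in Caco-2 cells, and 259 and 719 with the Caco-2 arrays fitted alone. With single arrays left out, 388 (without static replicate 3) to 908 (without SWMS replicate 1) rose and 999 (without static replicate 2) to 1563 fell there. The rise was also 426 without static replicate 2 and 406 without SWMS replicate 2. In HT29-MTX-E12 cells 418 fell, and 261, 224 and 287 without static replicate 1, 2 and 3 and 232, 244 and 212 without SWMS replicate 1, 2 and 3. In the difference of responses 204 were higher, 321 with array weights, 124 without static Caco-2 replicate 3 and 127 without SWMS HT29-MTX-E12 replicate 1. No member has a second single-gene probe set, so that alternative was not run. The cause of these shifts was not tested. Values under 4, as for *INHBA* and *TGFB2* in Caco-2 cells, are close to background, and changes there cannot be measured well.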
